A study of Mus musculus with 4 samples.

Results

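The miRNAs described here are the mouse miR-297, miR-466, miR-467 and miR-669 families, most of which come from one tandem cluster of hairpins inside an intron of the gene Sfmbt2. Members were taken from the deposited table of mature miRNAs as every entry whose name starts with miR-297, miR-466, miR-467 or miR-669 and that had at least 1 count in any library. The rule kept 70 of the 80 entries listed for these families, among 1101 miRNAs of 1915 with a count. They comprised 4 miR-297, 27 miR-466, 13 miR-467 and 26 miR-669 miRNAs, of which 27 were named as 5p strands, 33 as 3p strands and 10 without an arm. Small RNA was sequenced from MIN6 cells and from MIN6-derived exosomes, with 2 libraries each, to learn which miRNAs the exosomes carry relative to their parent cells. MIN6 is an insulin-secreting line that was established from a mouse insulinoma, so both groups represent a single tumor line, and it was grown in medium with serum depleted of exosomes. No treatment separated the groups, and nothing in the labels says whether the libraries of a group came from separate cultures. The p-values therefore measure only the spread between these libraries, which may be technical.

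A miRNA is cut from a hairpin precursor, whose 2 arms give a 5p and a 3p strand, and bases 2 to 8 of the mature strand, the seed, direct it to target mRNAs. Sfmbt2 encodes a Polycomb group protein, and its intronic miRNA cluster is found in rodents and is best known from the placenta, where the host gene is imprinted. The cluster consists of repeated hairpins, many of which have UG repeats on the 5p arm and the complementary CA repeats on the 3p arm. This does not hold for all of them: in miR-467a-5p the longest stretch of alternating U and G is 3 bases. Exosomes are small vesicles that cells release and that carry RNA.

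The 70 members had 61 distinct mature sequences and 37 distinct seeds. Of the members, 16 shared their whole sequence with another, and 46 shared a seed with at least 1 other. The sequences below, as given in the deposited files and written 5′ to 3′ with the seed in capitals, are those on which the results turn: the member that dominated the exosomes, the 3p strands that were higher there, and the abundant cell members that were not.
miR-466i-5p: uGUGUGUGugugugugugug
miR-466f-3p: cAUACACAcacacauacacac
miR-466h-3p: uACGCACGcacacacacac
miR-466i-3p: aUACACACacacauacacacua
miR-669c-3p: uACACACAcacacacaaguaaa
miR-669c-5p: aUAGUUGUguguggaugugugu
miR-467b-3p: aUAUACAUacacacaccaacac
miR-467f: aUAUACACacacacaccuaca
miR-466q: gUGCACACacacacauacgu
miR-466b-3p, miR-466c-3p and miR-466p-3p: aUACAUACacgcacacauaaga
miR-466a-3p and miR-466e-3p: uAUACAUAcacgcacacauaaga
miR-669a-3p and miR-669o-3p: aCAUAACAuacacacacacguau
The miR-466i-5p sequence was a pure UG repeat. The miR-466a-3p and miR-466b-3p sequences differed only by 1 base at their 5′ end, which shifts the seed, and most of their reads can be counted for both. The seed AUACAUA was the most widely shared, with 8 members from all 4 families (miR-297a/b/c-3p, miR-466a/d/e-3p, miR-467g and miR-669d-3p). UAUACAU followed with 7 members (miR-467b/c/d/e-3p, miR-669d-2-3p, miR-669l-3p and miR-669m-3p).

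The members are assigned to 80 hairpins. By the RefSeq table for GRCm38.p6, 70 of them lie in an intron of Sfmbt2 and on its strand, between the ends of chr2:10466663-10518279, a span of 51.6 kb, and Sfmbt2 itself spans chr2:10370510-10595253 in GENCODE vM21. Another 9 lie elsewhere, and 1 was not placed here. The hairpins outside the cluster include mir-466i, which is intronic to Cdk13 on the opposite strand. They also include mir-466q at chr3:28419943-28420018, intronic to Tnik on the same strand, and mir-467f at chr11:69635400-69635519, intronic to Fxr2 on the opposite strand. By this placement 60 members came from the Sfmbt2 cluster alone, 9 from elsewhere alone and 1 (miR-297a-5p) from both. The hairpins of miR-669c and miR-466q are shown, the first because its strands behaved differently and the second because it holds a long UG repeat off its annotated strand, with every base of an annotated mature strand in capitals. mir-669c lies in the Sfmbt2 cluster at chr2:10509296-10509404 (plus strand).
mir-669c: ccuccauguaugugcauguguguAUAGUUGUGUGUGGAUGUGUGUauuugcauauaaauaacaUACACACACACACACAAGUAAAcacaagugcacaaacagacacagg
mir-466q: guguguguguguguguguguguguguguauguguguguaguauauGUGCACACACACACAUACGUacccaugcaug
The 20 bases of miR-466i-5p fitted 2 positions of the mir-466i hairpin. They also fitted 4 positions of the mir-466q hairpin, which is not annotated as its source. In the GENCODE vM21 transcripts of 53248 other genes, the sequence of miR-466i-5p was found in 2025 genes, that of miR-466f-3p in 12, that of miR-467g in 2 and that of miR-466g in 1. The sequences of the other members were found in 0. A read of miR-466i-5p can therefore not be assigned to one locus, and one of miR-466f-3p, miR-467g or miR-466g need not come from its hairpins.

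The cell libraries held 2930217 and 2564068 mature counts and the exosome libraries 47447 and 31409. A count of 3, taken as the floor, was worth 1.02 and 1.17 RPM (the mature count scaled to a common library total) in cells and 63.2 and 95.5 RPM in exosomes, so a member at the level of a few RPM was not detectable in exosomes at this depth. The beta-cell miRNAs miR-375-3p, miR-7a-5p and miR-184-3p had a count in every library, and their sum was 39714 to 40751 RPM in cells and 12672 to 27020 RPM in exosomes. The 4 miRNAs of red blood cells, platelets and myeloid cells (miR-451a, miR-144-3p, miR-486a-5p and miR-223-3p) summed to 1.37 and 1.56 RPM in cells and to 6196 and 1369 RPM in exosomes, and miR-451a and miR-144-3p were at 0 in both cell libraries. The liver miRNA miR-122-5p was at 4.44 and 8.19 RPM in cells and at 1665 and 1974 RPM in exosomes. The 5 fibroblast and muscle miRNAs summed to 20.7 to 30.4 RPM in cells and to 1370 to 1401 RPM in exosomes, with miR-133a-3p at 0 in all 4 libraries. The lower sum of the beta-cell list came from miR-7a-5p (26831 and 26158 RPM in cells, 8304 and 1019 in exosomes), since miR-375-3p overlapped between the groups and miR-184-3p was at 4807 and 3674 RPM in cells and at 8030 and 4585 in exosomes. The sums of the other 3 lists were higher in exosomes, although the muscle miRNA miR-1a-3p was at 16.0 and 11.3 RPM in cells and at 63.2 and 0 RPM in exosomes. The part of these lists in the results below was not tested. The exosome and cell libraries were also checked on different instruments before sequencing, and group and instrument cannot be told apart.

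The families took a far larger part of the exosome miRNA counts than of the cell miRNA counts. Counting each distinct sequence once, 1010 and 775 counts of the cell libraries fell on the members. These were 0.0345% (95% Wilson interval 0.0324 to 0.0367) and 0.0302% (0.0282 to 0.0324) of the mature counts. In the exosomes 3259 and 3975 counts fell on them, or 6.87% (6.64 to 7.10) and 12.7% (12.3 to 13.0). Intervals and floors cover counting error only. The mean share was 0.0323% ± 0.0030 in cells and 9.76% ± 4.09 in exosomes (SD, n = 2), a difference of 9.73 percentage points. The 2 groups did not overlap, but 2 against 2 libraries cannot give an exact permutation p below 0.33, the value obtained (two-sided). In bulk libraries such as these, fewer vesicles or cells and less RNA in each cannot be told apart, and a share is relative to all other miRNAs of the library.

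One sequence made up most of this difference. miR-466i-5p had 239 and 200 counts in cells and 2803 and 3597 in exosomes, that is 81.6 and 78.0 RPM against 59076 and 114521 RPM. It ranked 178 of all miRNAs by mean RPM in cells and 2 in exosomes. Within the family it took 23.7% and 25.8% of the counts in cells and 86.0% and 90.5% in exosomes. Without it, the family share was 0.0263% and 0.0224% in cells and 0.961% and 1.20% in exosomes, a difference in means of 1.06 percentage points with the exosome libraries still above the cell libraries. miR-466f-3p, the second most abundant member in exosomes, took 22.4% and 18.5% of the family counts in cells and 8.16% and 5.06% in exosomes. miR-466q, the third most abundant sequence in cells, took 13.5% and 13.2% of the family counts in cells and 0.245% and 0.126% in exosomes. These are shares within a library and do not depend on scaling between libraries.

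**Figure D1:**
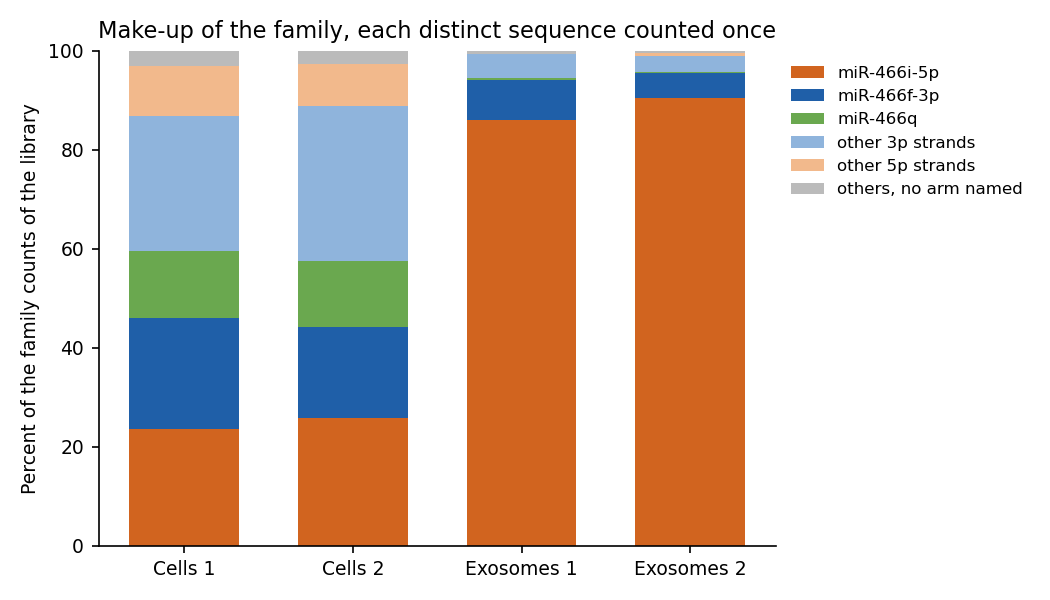
Each bar is 1 library and shows the percent of its family counts (each distinct sequence once, n = 1010, 775, 3259 and 3975 counts from left to right) that fell on miR-466i-5p, miR-466f-3p, miR-466q and the other members by arm. The cell bars are spread over many members, while miR-466i-5p fills 86.0% and 90.5% of the exosome bars.

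The make-up by family name shifted accordingly. The miR-466 miRNAs took a mean of 80.6% of the family counts in cells and 97.9% in exosomes, the miR-669 miRNAs 11.7% and 1.41%, the miR-467 miRNAs 6.73% and 0.666%, and the miR-297 miRNAs 1.01% and 0.0279%. As a part of all mature counts, however, the miR-669 miRNAs were at 0.00413% and 0.00343% in cells and at 0.0970% and 0.178% in exosomes. The miR-467 miRNAs were likewise at 0.00201% and 0.00230% in cells and at 0.0569% and 0.0637% in exosomes. The miR-297 miRNAs had 10 and 8 counts in cells and 1 in each exosome library, so no difference was detectable for them.

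Exosomes and cells were then compared miRNA by miRNA with edgeR's quasi-likelihood test across all 438 miRNAs that passed a filter on low counts, with Benjamini-Hochberg adjustment. Among these were 24 members with 20 distinct sequences, of which 14 were higher in exosomes (adjusted p under 0.05), 0 were lower and 10 did not pass. Of all tested miRNAs, 23.7% were called higher and 29.5% lower. The 14 are not all separate measurements, since some can count the same reads. By a shared stretch of 18 nt or more, miR-466i-3p overlaps miR-466f-3p, and miR-467d-3p overlaps miR-467a-3p. miR-669f-3p and miR-669p-3p each overlap miR-669a-3p in this way. At an unadjusted p under 0.05, 15 members were higher and 0 lower, and edgeR's exactTest, with at least 2-fold and p under 0.05 before adjustment, called 15 members higher, against 27.6% of all tested miRNAs. The 24 members are not an even sample of the family. The filter was passed through the exosome libraries alone by 15 of them, which include 12 of the 14 that were called, since a single exosome count was worth 21.1 or 31.8 RPM. Over all 70 members, 22 had both exosome libraries above both cell libraries in RPM, 13 had both below and 35 overlapped, where 20.3% of all miRNAs with a count were above and 34.2% below. The median log2 fold change was 3.61 over the 24 members and -0.75 over all tested miRNAs, and scaling by library size alone moved both, to 4.91 and 0.61. Without the filter, which brings in all 70 members, the medians were lower, at 1.35 and -1.67. The calls rested on the pair of cell libraries: with cell replicate 1 or replicate 2 left out, 0 of the 438 miRNAs passed, and 10 members were higher at an unadjusted p under 0.05 in either case. The lowest adjusted p of a member in the quasi-likelihood test was then 0.0645 and 0.0777.

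miR-466i-5p rose most, with a log2 fold change of 8.86 (SE 0.90, adjusted p = 0.0069, edgeR quasi-likelihood test). Its mean of 86799 RPM in exosomes was 1088 times the cell mean of 79.8 RPM, with an SD of 39205 RPM between the exosome libraries. miR-466f-3p, the 3p strand of 3 hairpins at the start of the Sfmbt2 cluster, had 226 and 143 counts in cells and 266 and 201 in exosomes, or 77.1 and 55.8 RPM against 5606 and 6399 RPM. Both exosome libraries exceeded both cell libraries by a wide margin, and the log2 fold change was 5.23 (SE 0.49, quasi-likelihood adjusted p = 0.0065). miR-466h-3p, with 31 and 17 counts in cells and 55 and 27 in exosomes, was at 10.6 and 6.63 RPM and at 1159 and 860 RPM. Its log2 fold change was 5.55 (SE 0.46, quasi-likelihood adjusted p = 0.0065). miR-466i-3p, annotated on the other arm of mir-466i, had 21 and 28 counts in cells and 30 in each exosome library. It rose by 5.16 on the log2 scale (SE 0.61, quasi-likelihood adjusted p = 0.0072), less than miR-466i-5p. Since it overlaps the more abundant miR-466f-3p by 18 nt or more, its reads need not come from mir-466i. A 15-base CA repeat distinguished miR-669c-3p, which had 7 and 9 counts in cells and 23 in each exosome library, with 2.39 and 3.51 RPM against 485 and 732 RPM. After miR-466i-5p it changed most in the family (log2 fold change 6.37, SE 0.61, quasi-likelihood adjusted p = 0.0066).

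**Figure D2:**
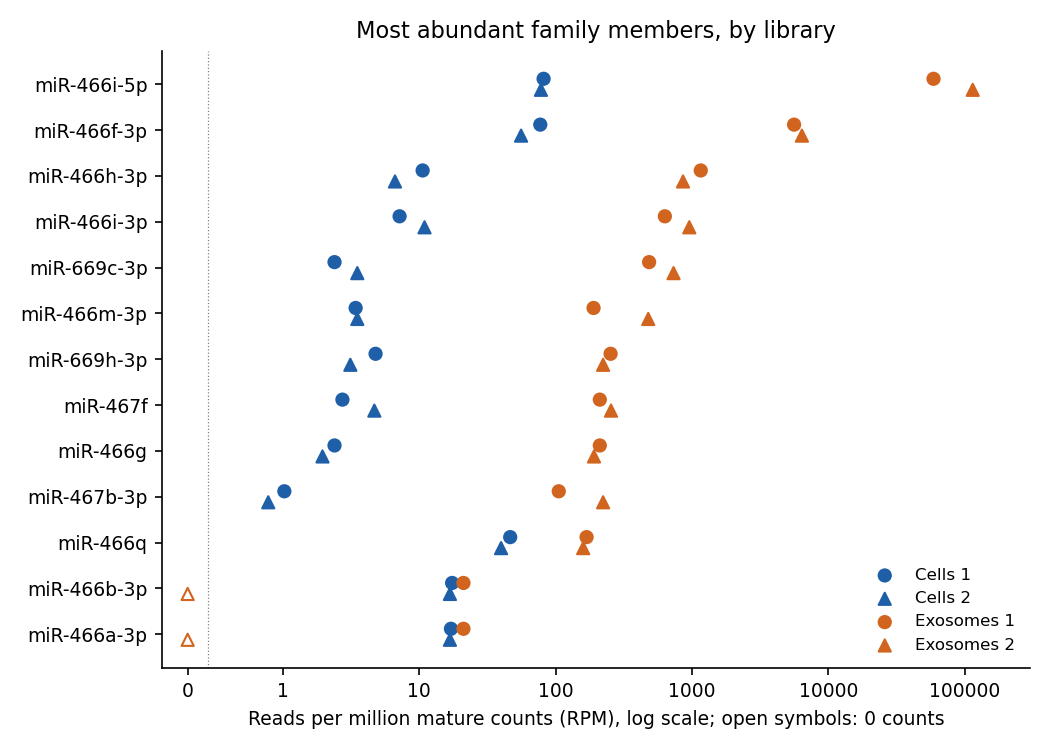
RPM on a log axis in the 2 cell and 2 exosome libraries for the 10 members with the highest mean in exosomes, followed by miR-466q, miR-466b-3p and miR-466a-3p, which are among the 5 highest in cells. Open symbols mark 0 counts. The exosome symbols of the first 10 rows lie well to the right of the cell symbols, those of miR-466q lie closer, and for miR-466b-3p and miR-466a-3p the groups overlap.

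The other members called higher had few counts. miR-467b-3p had 3 and 2 counts in cells and 5 and 7 in exosomes, and its ratio of normalized exosome to cell counts was 65.8 with an exact 95% counting interval of 21.6 to 238. miR-466m-3p had 10 and 9 counts in cells against 9 and 15, and its log2 fold change was 5.24 (SE 0.74, quasi-likelihood adjusted p = 0.0102). For miR-466g the counts were 7 and 5 against 10 and 6 (log2 fold change 5.16, SE 0.42, quasi-likelihood adjusted p = 0.0065). These 3 members had about as many reads in an exosome library as in a cell library that held over 50 times the mature counts. miR-669h-3p, with 14 and 8 counts in cells and 12 and 7 in exosomes, had a log2 fold change of 4.57 (SE 0.43). miR-467f, with 8 and 12 counts in cells and 10 and 8 in exosomes, had one of 4.62 (SE 0.55). The 4 remaining members, miR-467a-3p, miR-467d-3p, miR-669f-3p and miR-669p-3p, had 1 to 6 counts in each exosome library. miR-467a-3p had 9 in each cell library and 3 and 1 in exosomes, a ratio of 6.09 (exact 95% counting interval 1.5 to 18.5), and was the smallest change called (log2 fold change 2.55, SE 0.57, quasi-likelihood adjusted p = 0.0260). It did not pass with DESeq2 (adjusted p = 0.0564), without the filter, with the replicate number as a block (quasi-likelihood adjusted p = 0.0650), or with exosome replicate 1 left out. miR-669f-3p had 7 and 4 counts in cells and 2 and 3 in exosomes, a ratio of 12.5 (3.39 to 38.9), and did not pass without the filter or without exosome replicate 2. Over the 14 members the ratio of mean RPM ranged from 14.4 to 1088. That their groups did not overlap in RPM adds little, since a single exosome count already exceeded the cell level of most of them.

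Of the 10 tested members that did not pass, 1 came close to the threshold. miR-466c-5p had 7 and 5 counts in cells and 1 and 4 in exosomes, or 2.39 and 1.95 RPM against 21.1 and 127 RPM, with a log2 fold change of 3.56 (SE 1.07, quasi-likelihood adjusted p = 0.0505). The others included abundant members of the cells. miR-466q had 136 and 102 counts in cells and 8 and 5 in exosomes, or 46.4 and 39.8 RPM against 169 and 159 RPM. The groups did not overlap in RPM, but its log2 fold change of 0.61 did not pass (SE 0.37, quasi-likelihood adjusted p = 0.229). With library size alone as the scaling it was 1.94 (quasi-likelihood adjusted p = 0.0267), and without the filter it was -0.69, so neither its direction nor its call was settled. miR-466b-3p, identical to miR-466c-3p and miR-466p-3p and annotated on 8 hairpins of its own name in the cluster, had 51 and 43 counts in cells and 1 and 0 in exosomes. At the cell level, 3.43 counts were to be found in the 2 exosome libraries together under TMM scaling, so no difference was detectable at this depth (ratio 0.292, exact 95% counting interval 0.0073 to 1.66). Its log2 fold change was -1.78 (SE 0.89, quasi-likelihood adjusted p = 0.171), and that of the overlapping miR-466a-3p and miR-466e-3p was -1.77 (quasi-likelihood adjusted p = 0.175). The upper bound of 1.66 overlapped the counting interval of miR-467a-3p, the smallest change called, which starts at 1.5. miR-466b-3p took 18.4% and 23.1% of the joint counts of miR-466b-3p and miR-466f-3p in cells. In exosomes it took 0.375% (1 of 267, 95% Wilson interval 0.066 to 2.09) and 0 of 201, which allows a share of up to 1.49% at the floor of 3 counts and of up to 1.88% by the Wilson interval. The exosome shares were thus below the cell shares whatever the scaling between libraries, although 2 libraries a group give an exact permutation p of 0.33 at best. In the same way miR-466q took 86.6% and 78.5% of its joint counts with miR-466i-3p in cells and 21.1% and 14.3% in exosomes.

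Several further members of the cells had at most 2 counts in each exosome library, close to the limit of detection. miR-669a-3p and miR-669o-3p, which share a sequence annotated on many hairpins of the cluster, had 20 and 18 counts in cells and 1 in each exosome library (ratio 1.44, exact 95% counting interval 0.169 to 5.58). Their log2 fold change was 0.53 (quasi-likelihood adjusted p = 0.664) and turned to -0.73 without the filter. miR-669c-5p had 23 and 19 counts in cells and 0 and 2 in exosomes, with a log2 fold change of 0.44 (SE 1.30, quasi-likelihood adjusted p = 0.774) that turned to -0.81 without the filter and to -6.85 without exosome replicate 2. miR-466d-3p had 19 and 18 counts in cells and 0 in both exosome libraries, where 1.35 counts were to be found at the cell level. The strands miR-467a-5p, miR-467b-5p, miR-467e-5p and the shared miR-669a-5p and miR-669p-5p had 7 to 9 counts in each cell library and 0 in both exosome libraries. The shared sequence of miR-297a-3p, miR-297b-3p and miR-297c-3p had 7 and 8 counts in cells and 1 and 0 in exosomes. No fold is given for these, since 0 counts in exosomes cannot be told from the cell level. In all, 46 members were not tested. None of them exceeded 19 counts in any library, 21 were at 0 in both exosome libraries and 7 in both cell libraries. The number of members with a count was 57 and 51 in cells and 34 and 37 in exosomes.

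The tested members also differed in the length of their longest alternating UG or CA stretch, counted on the mature strand. Of the 4 distinct sequences with a stretch under 8 bases, 2 were called higher (miR-466m-3p and miR-669h-3p), and the median log2 fold change was 1.40. Of the 11 with 8 to 11 bases, 8 were called, with a median of 3.65, and of the 5 with 12 or more, 4 were called, with a median of 4.62. Of all tested miRNAs, 23.7% were called higher. The medians are descriptions over few sequences that passed the filter mainly through exosomes, and the classes were chosen with the data known. The counts of all members other than miR-466i-5p did not follow the same order. Stretches of 12 bases or more held 20.4% and 23.0% of them in cells and 9.43% and 11.1% in exosomes. Stretches of 8 to 11 bases held 52.5% and 49.0% against 84.2% and 80.2%. Stretches under 8 bases held 27.1% and 28.0% against 6.36% and 8.73%. These shares rest largely on single members. In the longest class miR-466q alone gave 136 of 157 and 102 of 132 counts in cells. In exosomes it gave 8 of 43 and 5 of 42. In the class of 8 to 11 bases miR-466f-3p gave 226 of 405 and 143 of 282 counts in cells. In exosomes it gave 266 of 384 and 201 of 303. The exceptions are visible in the plot of fold change by repeat length, where miR-466q with a stretch of 12 bases lies at 0.61 and miR-466m-3p with 7 bases at 5.24. Leaving out miR-466i-5p and all members with a stretch of 12 bases or more left 10 members called higher. Of the 14 called members, 11 had a sequence that was found in 0 other genes. That search covered exact matches in annotated transcripts only, and the source of the reads was not tested.

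**Figure D3:**
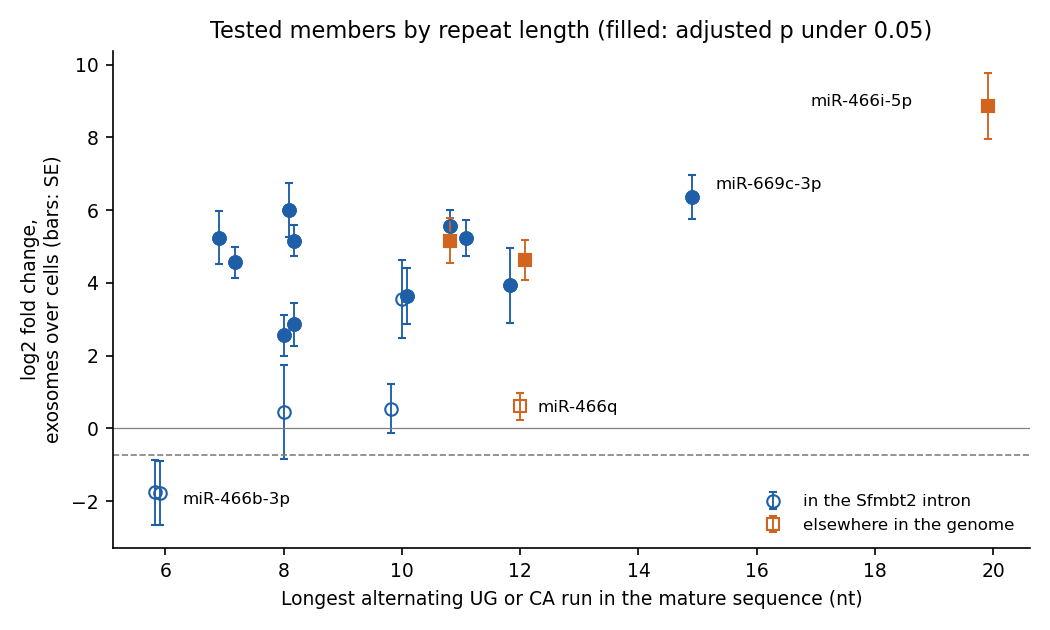
Log2 fold change of exosomes over cells (edgeR quasi-likelihood fit, bars ± SE) for the 20 distinct sequences tested, against the longest alternating UG or CA stretch in nt, slightly offset where points coincide. Filled symbols have an adjusted p under 0.05, circles lie in the Sfmbt2 intron and squares elsewhere, and the dashed line is the median of all 438 miRNAs, -0.75. miR-466i-5p stands at the top right and miR-466b-3p and miR-466a-3p at the bottom left.

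The same repeat letters occur in a few miRNAs outside these families. A mature sequence with UGUGUGUG or CACACACA, read on the mature strand only, was found in 4 of the 414 tested miRNAs outside the families. It was also found in 1 more that was not tested. Of the 4, 3 were higher in exosomes and 1 lower, where 23.7% and 29.5% of all tested miRNAs were. miR-1187 had 5 and 3 counts in cells and 33 and 28 in exosomes (log2 fold change 7.74, SE 0.57, quasi-likelihood adjusted p = 0.0065). miR-3082-5p had 12 and 11 counts in cells and 18 and 28 in exosomes (log2 fold change 5.95, SE 0.75, quasi-likelihood adjusted p = 0.0082). miR-574-5p was far more abundant in cells, with 1698 and 1507 counts, and had 336 and 337 in exosomes, a log2 fold change of 2.68 (SE 0.52, quasi-likelihood adjusted p = 0.0201). miR-32-3p moved the other way, with 788 and 663 counts in cells and 2 in each exosome library (log2 fold change -3.68, SE 0.52, quasi-likelihood adjusted p = 0.0102). miR-672-5p, which was not tested, had 7 and 13 counts in cells and 4 and 0 in exosomes. The 4 tested sequences are shown with their seed in capitals, since a repeat stretch is common to the 3 that rose and to the 1 that fell.
miR-1187: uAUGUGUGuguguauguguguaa
miR-3082-5p: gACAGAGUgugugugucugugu
miR-574-5p: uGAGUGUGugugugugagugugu
miR-32-3p: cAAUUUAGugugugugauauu
With either cell library left out, 0 of these 4 passed, as for every other miRNA tested.

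The balance between 5p and 3p strands differed between cells and exosomes over the family as a whole and in some hairpins. Over the members with an arm in their name, 5p strands held 40.6% and 40.9% of the counts in cells and 86.9% and 91.7% in exosomes, a difference in means of 48.6 percentage points (exact permutation p = 0.33, two-sided, the smallest possible). This direction was set by miR-466i-5p alone. Without it, 5p strands held 17.1% and 14.8% in cells and 0.469% and 6.84% in exosomes, a difference of -12.3 points. Single hairpins showed both directions in shares that do not depend on scaling between libraries. For mir-669c, whose arms are printed above, the 3p strand held 7 of 30 and 9 of 28 reads in cells (23.3% and 32.1%) and 23 of 23 and 23 of 25 in exosomes (100% and 92.0%). The Wilson intervals of the exosome libraries, 85.7 to 100% and 75.0 to 97.8%, did not overlap those of the cells, 11.8 to 40.9% and 17.9 to 50.7%. For mir-467b it held 3 of 10 and 2 of 9 reads in cells and 5 of 5 and 7 of 7 in exosomes, where the interval of exosome replicate 1 (56.6 to 100%) overlapped that of cell replicate 1 (10.8 to 60.3%). Its 5p entry, miR-467b-5p, overlaps miR-467a-5p by 18 nt or more and had the same counts, 7 in each cell library and 0 in both exosome libraries. The 5p reads can thus come from the mir-467a copies, and the strand balance of mir-467b itself is not known. The mir-669p 3p strand held 6 of 13 and 9 of 17 reads in cells and 2 of 2 and 6 of 6 in exosomes, with intervals that overlapped. Its 5p strand is identical to miR-669a-5p, so those reads need not come from mir-669p. For mir-466i the counts went the other way, with 8.08% and 12.3% on the 3p strand in cells and 1.06% and 0.827% in exosomes. Since reads of miR-466i-5p also match other loci, these values are ratios of the 2 entries and not the strand balance of that hairpin. The 3p strand of mir-466c, whose sequence is shared with other hairpins, held 51 of 58 and 43 of 48 reads in cells and 1 of 2 and 0 of 4 in exosomes. Nearly all mir-466f and mir-466h reads were 3p strands in both groups. Their mean shares were 98.9% and 95.7% in cells and 99.3% and 100% in exosomes. The 3p shares of mir-466m, mir-669d and mir-669f overlapped between the groups.

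**Figure D4:**
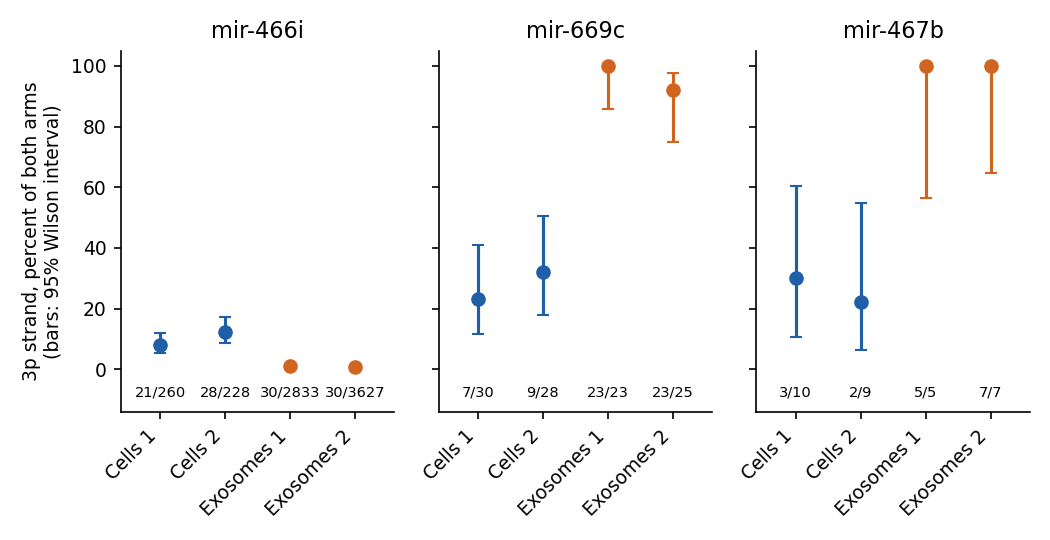
Percent of the reads of both arms that fell on the 3p strand of mir-466i, mir-669c and mir-467b in each library, with 95% Wilson intervals and the reads behind each point. The 3p share is lower in exosomes for mir-466i, whose 5p reads also match other loci, and higher for mir-669c and for mir-467b, whose 5p reads can also come from the mir-467a copies.

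The part of the family counts from the Sfmbt2 cluster was 58.2% and 55.5% in cells and 12.5% and 8.23% in exosomes. With miR-466i-5p left out it was 76.3% and 74.8% in cells and 89.0% and 86.5% in exosomes. These parts go by the annotated hairpins. miR-466f-3p, whose sequence also occurs in 12 other genes, gave 266 of 406 and 201 of 327 of the cluster counts in exosomes. In cells it gave 226 of 588 and 143 of 430. Of the distinct tested sequences, 11 of 16 from the cluster (median log2 fold change 3.79) and 3 of 4 from elsewhere (4.89) were called higher, and the difference between these was not tested. Within the cluster the hairpins fall into a middle part, in which mir-467, mir-466 and mir-669 copies alternate, and outer parts. The middle part was taken from the first to the last mir-467 hairpin, at chr2:10473931-10507714, or 7.27 to 41.1 kb from the first hairpin of the cluster, a boundary chosen after the values were seen. Of the distinct sequences, 18 came only from the middle, 29 only from the outer parts and 4 from both. Outer sequences held 68.0% and 59.8% of the cluster counts in cells and 94.1% and 92.4% in exosomes, middle sequences 18.7% and 24.0% against 5.42% and 7.34%, and sequences of both parts 13.3% and 16.3% against 0.493% and 0.306%. Among tested sequences, 7 of 8 from the outer parts were called higher (median log2 fold change 5.19). It was 4 of 6 from the middle (3.21) and 0 of 2 from both (-0.62). Of all tested miRNAs, 23.7% were called higher. The tested cluster sequences passed the filter mainly through exosomes, and most sequences of the cluster were not tested. miR-466f-3p alone made up most of the outer counts. miR-466a-3p and miR-466b-3p, which share most reads, entered the shares of counts separately.

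**Figure D5:**
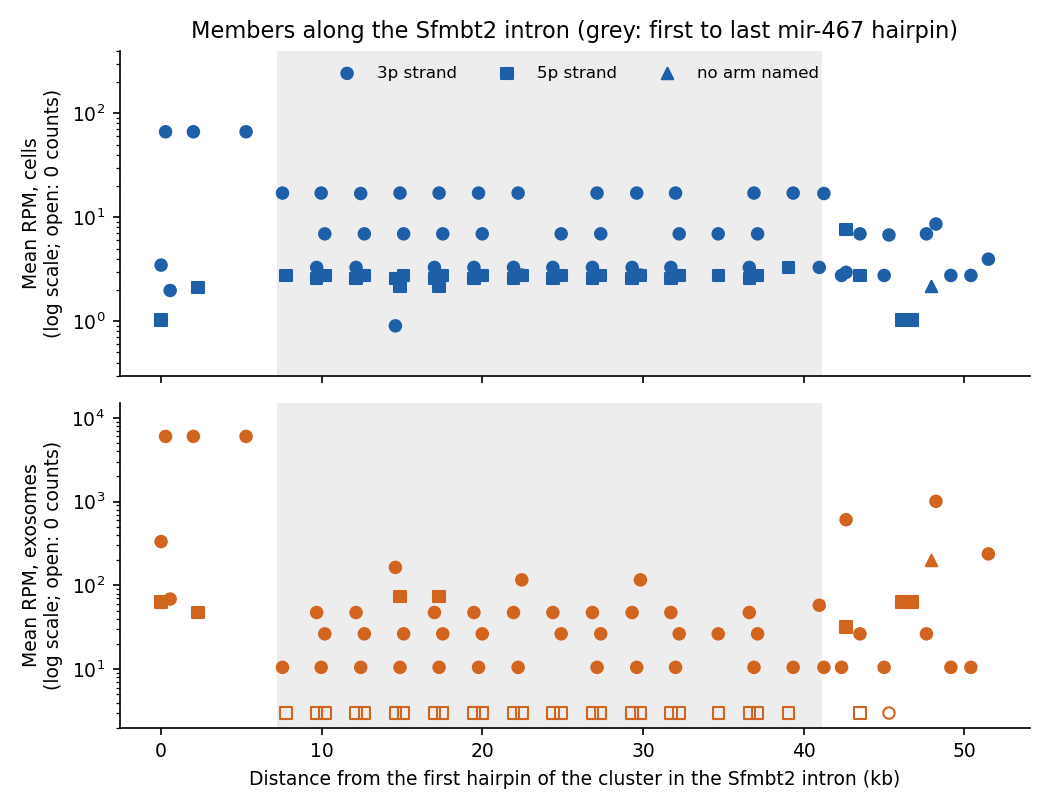
Mean RPM (log axis) in cells (upper panel) and exosomes (lower panel) against the distance of each hairpin from the first hairpin of the Sfmbt2 cluster in kb. Only members with at least 10 counts over all libraries together are drawn. A member with several hairpins is drawn at each with the same value, open symbols had 0 counts in both libraries, and grey marks 7.27 to 41.1 kb. In exosomes the highest points lie outside the grey span, and most 5p strands inside it are open.

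The deposited counts per hairpin give a readout that the mature counts do not contain, the reads that fall on a hairpin but on neither annotated arm. Over the hairpins of the members, off-arm reads were 9.89% and 6.67% of the deposited read totals in cells and 24.7% and 17.3% in exosomes. The difference in means was 12.7 percentage points (exact permutation p = 0.33, two-sided, the smallest possible). A read that matches several copies is counted at each, as seen in mir-669a, where 11 copies carried the same 54 and 52 reads in cells. The size of the difference depended on a few hairpins. mir-466i and mir-466q, the hairpins of members in which miR-466i-5p fits several positions, held most reads in exosomes. Their totals exceeded the sum of their reads on and off the arms. Shares that include them are therefore not fractions of separate reads. Without both hairpins the off-arm share was 11.5% and 8.05% in cells and 62.0% and 60.2% in exosomes. mir-669h, the last hairpin of the Sfmbt2 cluster, had 97.2% of its reads off the arms in both cell libraries and 98.5% and 98.4% in exosomes, of 503 and 290 reads in cells and 776 and 449 in exosomes. Nearly all of its reads were thus not miR-669h strands. Leaving out mir-669h as well gave 3.55% and 2.32% in cells and 33.5% and 41.1% in exosomes, a difference in means of 34.4 points. The cell totals of these last shares hold the same reads at many copies. For example, mir-466b-1 and mir-466b-2 each carried 252 and 217 reads in cells, with 0 off the arms, and 5 and 0 reads in exosomes. The size of the difference therefore depends on which hairpins carry reads in each group, and counting such copies once was not combined with leaving these hairpins out. For mir-467f, outside the cluster, 68.0% and 57.1% of 25 and 28 reads in cells and 89.7% and 90.7% of 97 and 86 reads in exosomes were off the arms. The mir-466q hairpin had a total of 2350 and 1938 reads in cells and 27085 and 33551 in exosomes. In exosomes 7131 and 6268 of these were off its arm, while its annotated strand miR-466q had 8 and 5 mature counts.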

How the data were processed

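Small RNA from MIN6 cells and MIN6-derived exosomes (2 libraries each) was prepared with a kit that adds a poly(A) tail before oligo(dT)-primed cDNA synthesis. The authors trimmed adapters, removed rRNA reads and aligned the rest in turn to the genome (mm10 in the submitters' processing notes, which also name cutadapt, Bowtie, STAR, RSEM, Bowtie2 and edgeR), miRBase and RNAcentral. How reads with several matches were shared is not given in the sources used here. The authors deposited raw counts per mature miRNA, RPM values relative to each library's mature counts, and per library the counts per hairpin on and off its annotated arms. The reads per arm of each hairpin (8 columns) were not used.

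Groups were taken from the sample labels. Counts were filtered with filterByExpr (minimum count 10, which left 438 of 1101 miRNAs) and tested with the quasi-likelihood test of edgeR 4.0.16 in R 4.3.3, with TMM normalization and Benjamini-Hochberg adjustment over all tested miRNAs. Fold changes are exosomes over cells. Shares carry 95% Wilson intervals, and ratios of low counts carry exact intervals from the binomial split of the counts. Sums count identical sequences once. Python 3.11.15, scipy 1.17.1 and DESeq2 1.42.0 were also used, and the fits were tested on simulated data. Library totals ranged from 31409 to 2930217 mature counts, and 1 count was worth 0.341 and 0.390 RPM in cells and 21.1 and 31.8 RPM in exosomes. Hairpins were placed with RefSeq (GRCm38.p6), and hairpin sequences in the files were matched to GENCODE vM21 (79 of 80 identical at that place). Mature sequences were searched on the sense strand of 139565 transcripts.

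The members, gene lists, tests and repeat classes were chosen with earlier results of these data known. Members named are the 10 highest in exosomes, the 5 highest in cells, the 5 largest changes called, and those at or under 3 counts in one group and past 3 in both libraries of the other. The remaining called members, miR-466c-5p, members named for a shared seed or locus, and the hairpins were chosen after their values were seen. The alternatives were other scalings, tools and filters, identical sequences counted once, the replicate number as a block, and each library left out. A sequence withheld for evaluation is not reported here.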

Additional observations from a re-analysis of the deposited data

How the results depend on the processing

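The 14 members called higher became 15 with RLE scaling, upper quartile scaling and TMM computed without the members, 16 with library size alone, 14 with DESeq2, 15 with the exactTest, 12 without the filter and 15 with identical sequences counted once. With at least 10 counts in every library 4 members could be tested, and all 4 were called. With single libraries left out the count ranged from 0 to 13 (0 without either cell library, 13 without exosome replicate 1, 12 without exosome replicate 2), with the tested miRNAs held fixed and the lone library assumed to vary like the other group. The log2 fold change of the 14 stayed above 0 in each of these settings in which they could be tested, and 0 members were called lower in any of them. At the cell level, 3.43 counts of miR-466b-3p and 1.35 of miR-466d-3p were to be found in the 2 exosome libraries together. Such members had little room to be called lower. Same-numbered libraries of the groups share only a number (correlation of their deviations 0.194), and with the replicate number as a block 14 members were higher, 13 of them the same (miR-467a-3p was lost). The 3 repeat miRNAs outside the families called higher and the 1 called lower became 0 and 0 without either cell library (ranges 0 to 3 and 0 to 1), and the 1 called lower could not be called with at least 10 counts in every library (0). Log2 fold changes that turned were those of miR-466q (-0.69), miR-669a-3p (-0.73) and miR-669c-5p (-0.81) without the filter and of miR-669c-5p without exosome replicate 2 (-6.85, against 1.90 without exosome replicate 1). The difference in the family share was 1.06 points without miR-466i-5p, 9.60 with members grouped by a shared stretch of 18 nt (chosen after seeing the data) and 6.84 to 12.6 with single libraries left out. The difference in the 5p share was 55.4 points with identical entries each counted, -12.3 without miR-466i-5p and 46.1 to 51.0 with single libraries left out. The off-arm difference was 6.20 points without the most-read hairpin, 3.59 over hairpins with at least 10 reads in each library, 51.3 without mir-466i and mir-466q, in which miR-466i-5p fits several positions, 34.4 also without mir-669h, 8.68 with hairpins of equal counts taken once (the last 3 chosen after seeing the data) and 9.01 to 16.4 with single libraries left out. The cause of these changes was not tested. For the off-arm share, taking equal counts once was not combined with leaving hairpins out. The depth of the exosome libraries limits every statement on members below its floor of 63.2 and 95.5 RPM.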

Other observations

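Several 5p members whose sequences overlap by 18 nt or more differed within groups rather than between them. miR-466m-5p, identical to miR-669m-5p, had 6 and 0 counts in cells and 0 and 4 in exosomes. miR-466j had 5 and 0 in cells and 0 and 2 in exosomes, miR-466f-5p 5 and 0 against 0 and 3, and miR-669f-5p 7 and 0 against 0 and 2. These largely count the same reads, and the counts are too low for a test. Members with the seed UAUACAU had 17 and 15 counts in cells and 15 and 10 in exosomes, and those with the seed AUACAUA had 81 and 73 in cells and 5 and 0 in exosomes, each distinct sequence counted once. The mir-466k hairpin had 625 and 568 reads in cells and 5518 and 7929 in exosomes. The UG repeat of miR-466i-5p fits 2 of its positions.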
